A study of Mus musculus with 30 samples.

Results

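The genes described here were 10 genes of vascular endothelium, chosen by name from the 41128 genes that the count tables of both tissues held. Pecam1, Icam2, Vwf, Eng, Emcn, Kdr, Flt1 and Tek mark endothelial identity, and Selp and Sele encode the selectins that activated endothelium carries. The study asked how loss of the epidermal growth factor receptor (EGFR) in vascular smooth muscle cells and a high-fat diet act on mouse vessels and kidneys. Messenger and other RNA was sequenced from 14 aortae (3 WT-SFD, 4 WT-HFD, 3 KO-SFD and 4 KO-HFD) and 16 kidneys (4 in each of these groups). WT stands for wild type, KO for the VSMC-EGFR knockout, SFD for standard fat diet and HFD for high fat diet.

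All mice were male, had the strain background C57Bl6J and received tamoxifen, 1 mg per day on 5 days. Mice were 6 weeks old when HFD began, with 7 days between tamoxifen and diet, and both diets ran for 18 weeks. KO mice were Egfr flox/flox and carried a tamoxifen-inducible Cre on the Y chromosome under the Smmhc (Myh11) promoter, which is active in smooth muscle. WT mice carried this Cre and received tamoxifen too, but had no loxP sites. The endothelium was therefore not the targeted cell in any group, and the model says nothing of EGFR within endothelial cells. Aortae had been cleaned of the fat and connective tissue around them before RNA extraction. In the aorta, Egfr had means of 46.8 ± 7.41 (SD, n = 3) FPM in WT-SFD, 57.6 ± 5.71 (n = 4) in WT-HFD, 30.1 ± 4.73 (n = 3) in KO-SFD and 35.3 ± 6.09 (n = 4) in KO-HFD. FPM are edgeR's counts per TMM-scaled library, on the scale of CPM, where TMM is the trimmed mean of M values. No KO aorta reached the lowest WT aorta of its diet, but over all genes neither difference passed edgeR's quasi-likelihood test (log2 fold change for Egfr −0.64, adjusted p = 0.547 on SFD; −0.70, adjusted p = 0.129 on HFD). In the kidney Egfr ranged from 36.9 to 60.8 FPM, and WT and KO kidneys overlapped on either diet. Smooth muscle markers summed to 9791 to 17670 FPM in the aortae and to 108 to 160 FPM in the kidneys. Proximal tubule markers summed to 71.1 to 118.5 FPM in the aortae and to 10100 to 16470 FPM in the kidneys, so both tissue labels were borne out by their markers. Libraries held 6403699 to 13052870 counted fragments in the aorta (median 8998366) and 16354880 to 28331314 in the kidney (median 19544128). Small and structural RNA took 18.4% to 43.1% of the aortic counts and 0.043% to 0.126% of the renal counts. Both count tables list every protein-coding gene of chromosomes 9 (1229 genes), X (940), Y (198) and MT (13) at 0 in every library, as well as the 313 protein-coding genes of chromosome 8 that start beyond base 95888547 on GRCm38. None of the 10 genes lies there, but Icam1, Cdh5, Nrp1, Esam, Robo4, Fli1 and the smooth muscle genes Tagln and Cnn1 do, so that a listed 0 for these was not read as a level and they entered no test. The tissues were sequenced at different sites and were not fitted together, so that tissue and sequencing site cannot be told apart in any level set across them.

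Endothelial cells line every vessel and hold a shared set of surface and secreted proteins, but vascular beds differ in how much of each they make. Kdr and Flt1 encode receptors of vascular endothelial growth factor (VEGF), which are prominent in capillaries, and Tek encodes the receptor of the angiopoietins. P-selectin and E-selectin, the products of Selp and Sele, let leucocytes roll on inflamed endothelium, and Sele in particular is transcribed on stimulation by cytokines. In whole tissue, fewer cells of a type and less RNA per cell cannot be told apart.

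On GRCm38, the junction and adhesion genes Pecam1 (ENSMUSG00000020717) and Icam2 (ENSMUSG00000001029) lie on the minus strand at chr11:106654217-106750628 and chr11:106377656-106388075. The VEGF receptor genes Kdr (ENSMUSG00000062960) and Flt1 (ENSMUSG00000029648) are both on the minus strand of chromosome 5, at chr5:75932827-75978458 and chr5:147561604-147726011. Selp (ENSMUSG00000026580) and Sele (ENSMUSG00000026582) are neighbours on the plus strand at chr1:164115264-164150026 and chr1:164048234-164057677. The other 4 lie on the plus strand, Vwf (ENSMUSG00000001930) at chr6:125546774-125686679, Tek (ENSMUSG00000006386) at chr4:94739289-94874976, Eng (ENSMUSG00000026814) at chr2:32646595-32682669 and Emcn (ENSMUSG00000054690) at chr3:137341067-137432185. Selp was the member with overlapping genes in the annotation, Gm16587 and Gm16548 on the opposite strand, which held 20 and 13 counts over all aortae and 2 and 30 over all kidneys. The strand setting of the counting was not given in the sources used here, so the reads of this overlap could not be told apart by strand. In the kidneys Selp itself had only 66 counts in all.

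The promoters of Kdr, Flt1 and Emcn are shown because these 3 had the widest spread between aortae of the 9 members tested there, and that of Eng because it varied little. Each sequence is the 250 bases before the RefSeq start (GRCm38.p6), written 5′ to 3′ on the gene's strand, with capitals marking GGAA on either strand, the core of the ETS factors' binding sequence. The windows are chr5:75978456-75978705 for Kdr, chr5:147726012-147726261 for Flt1, chr3:137340828-137341077 for Emcn and chr2:32646345-32646594 for Eng.
Kdr: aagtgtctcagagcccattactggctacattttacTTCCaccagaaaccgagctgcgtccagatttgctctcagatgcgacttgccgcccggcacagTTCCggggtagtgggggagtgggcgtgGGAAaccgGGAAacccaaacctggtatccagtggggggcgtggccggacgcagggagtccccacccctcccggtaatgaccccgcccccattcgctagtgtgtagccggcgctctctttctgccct
Flt1: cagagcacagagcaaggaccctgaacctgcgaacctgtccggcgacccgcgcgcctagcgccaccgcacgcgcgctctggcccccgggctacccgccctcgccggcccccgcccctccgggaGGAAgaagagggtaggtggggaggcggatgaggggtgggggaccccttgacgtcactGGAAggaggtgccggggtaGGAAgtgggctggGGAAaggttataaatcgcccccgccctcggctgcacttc
Emcn: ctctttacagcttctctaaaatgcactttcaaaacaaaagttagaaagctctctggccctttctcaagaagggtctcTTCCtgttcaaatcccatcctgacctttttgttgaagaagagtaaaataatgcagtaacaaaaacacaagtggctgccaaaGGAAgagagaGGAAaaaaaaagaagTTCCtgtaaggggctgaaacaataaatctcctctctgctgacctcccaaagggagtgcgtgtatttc
Eng: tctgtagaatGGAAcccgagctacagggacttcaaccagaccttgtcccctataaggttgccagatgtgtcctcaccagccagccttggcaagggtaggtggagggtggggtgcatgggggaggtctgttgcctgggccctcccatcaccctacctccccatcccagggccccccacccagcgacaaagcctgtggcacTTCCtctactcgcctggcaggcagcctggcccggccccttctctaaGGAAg
RefSeq windows were matched for 7 of the 10 members. GGAA matched 4 times in each of the promoters of Kdr, Flt1 and Emcn, 3 times in Eng and in Sele, 2 times in Tek and 6 times in Selp. Of all 27025 promoter windows, 93.4% held a match, with a median of 3. The kappaB consensus, searched on both strands, matched once in Kdr and once in Flt1 and in 7.01% of all windows, with no match in the windows of either selectin gene. TATAAA on the gene's strand matched once in Flt1, 31 bases before the start, and once in Sele, 49 bases before it, against 8.12% of all windows. GATAA on either strand matched 2 times in Sele and in 23.0% of all windows. Overlaps between motifs were not removed. These matches are letters in a window and were not tested as binding sites.

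Per kilobase of exon, the junction protein gene Pecam1 was the most abundant member in the aorta, at 63.9 ± 8.24 FPM per kb (SD, n = 14). Its lowest aorta lay above the highest of the next gene, Vwf (18.8), which encodes the clotting protein stored in endothelial granules. Vwf, Eng (16.4) and Tek (11.8) followed with ranges that overlapped from one gene to the next. Below Tek came Icam2 (6.32), Flt1 (2.41), Selp (2.36), Emcn (1.52), Kdr (1.49) and Sele (0.198 FPM per kb), and the step from Tek to Icam2 was the only other one without overlap. In the kidney the order was different. Eng, a co-receptor of the transforming growth factor β family, led at 29.9 FPM per kb, followed without overlap by Pecam1 (11.1), Emcn (9.64), Kdr (7.02), Tek (6.97), Icam2 (4.15) and Flt1 (3.56). Vwf (0.544), Sele (0.285) and Selp (0.0466 FPM per kb) stood at the foot of the renal order, and the step from Flt1 to Vwf was without overlap.

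**Figure D1:**
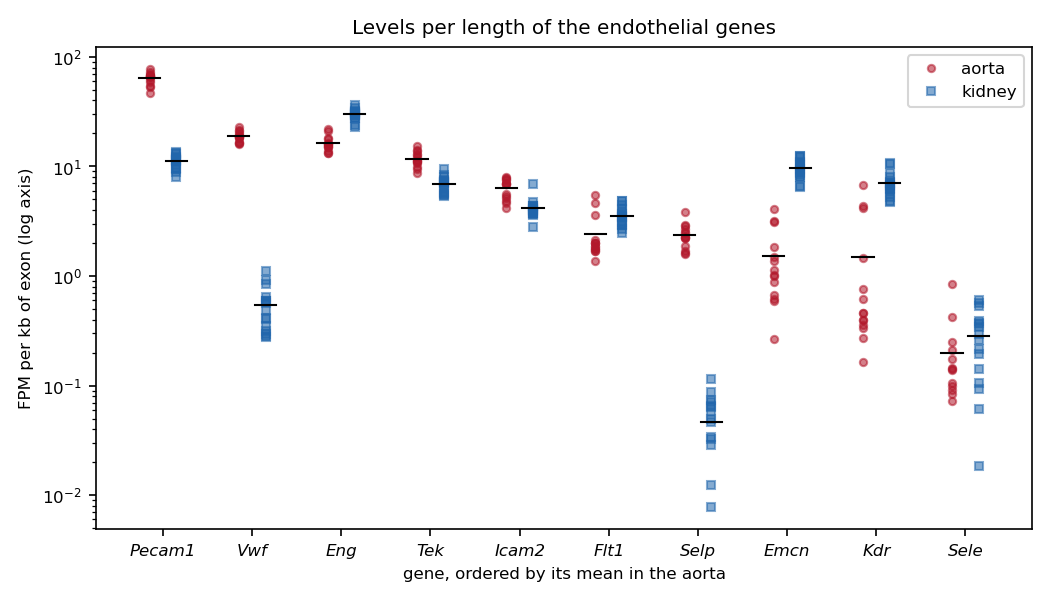
Level of each gene in FPM per kb of exon (log axis), one point per library, for 14 aortae (circles) and 16 kidneys (squares), with a line at each mean. Listed zeros are not drawn (Sele in 1 aorta, Selp in 2 kidneys). Pecam1 led in the aorta at 63.9 and Eng in the kidney at 29.9 FPM per kb, and Kdr spread more widely in the aorta than in the kidney.

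The identity genes other than Kdr, Flt1 and Emcn, and Selp, varied less over the 14 aortae. Pecam1 ran from 292 FPM in WT-SFD-1309 to 484 FPM in WT-HFD-1443, as aortae are named here by group and the mouse number of the labels, with group means of 376 ± 73.6 (WT-SFD), 409 ± 62.6 (WT-HFD), 401 ± 27.7 (KO-SFD) and 401 ± 52.1 FPM (KO-HFD). Vwf ran from 255 to 369 FPM with a coefficient of variation of 11.1%, the lowest of the 10 genes. The ratio of the highest to the lowest aorta was 1.45 for Vwf, 1.64 for Eng, 1.66 for Pecam1, 1.76 for Tek, 1.94 for Icam2 and 2.43 for Selp. In every diet and genotype comparison the groups overlapped for these genes, apart from Eng, which stood at 88.5, 66.7 and 71.5 FPM in KO-SFD and at 61.3, 60.8, 63.0 and 64.6 FPM in KO-HFD.

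The VEGF receptor genes and Emcn, which encodes a sialomucin of capillary and venous endothelium, varied far more. In WT mice Kdr stood at 60.7 (WT-SFD-1309), 39.2 (WT-SFD-1310) and 3.61 FPM (WT-SFD-1445) on SFD, and its 4 values on HFD were 3.57, 3.22, 6.88 and 5.63 FPM. In KO mice it stood at 37.6 (KO-SFD-1319), 13.1 (KO-SFD-1452) and 4.17 FPM (KO-SFD-1507) on SFD and at 1.47, 3.01, 4.16 and 2.46 FPM on HFD. Thus 4 of the 6 SFD aortae were above all HFD aortae, and the other 2, WT-SFD-1445 and KO-SFD-1507, were within the HFD range of 1.47 to 6.88 FPM. The highest aorta had 41.4 times the Kdr level of the lowest, and the counts behind these values ran from 12 to 445.

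Flt1, whose product also exists as a soluble VEGF trap, showed a like order at a smaller scale. It stood at 73.7, 62.1 and 27.0 FPM in WT-SFD, 28.7, 23.7, 23.8 and 18.5 in WT-HFD, 48.9, 22.9 and 27.2 in KO-SFD, and 22.9, 25.3, 24.7 and 27.0 in KO-HFD. Only 3 aortae were above 28.7 FPM, and they were the same SFD aortae that led for Kdr (WT-SFD-1309, WT-SFD-1310 and KO-SFD-1319). Emcn stood at 22.1, 17.2 and 1.44 FPM in WT-SFD, 3.37, 3.62, 7.40 and 3.2 in WT-HFD, 16.9, 8.08 and 9.97 in KO-SFD, and 4.77, 6.20, 5.44 and 5.47 in KO-HFD. Its lowest value of all was that of WT-SFD-1445, while every KO-SFD aorta was above every KO-HFD aorta.

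**Figure D2:**
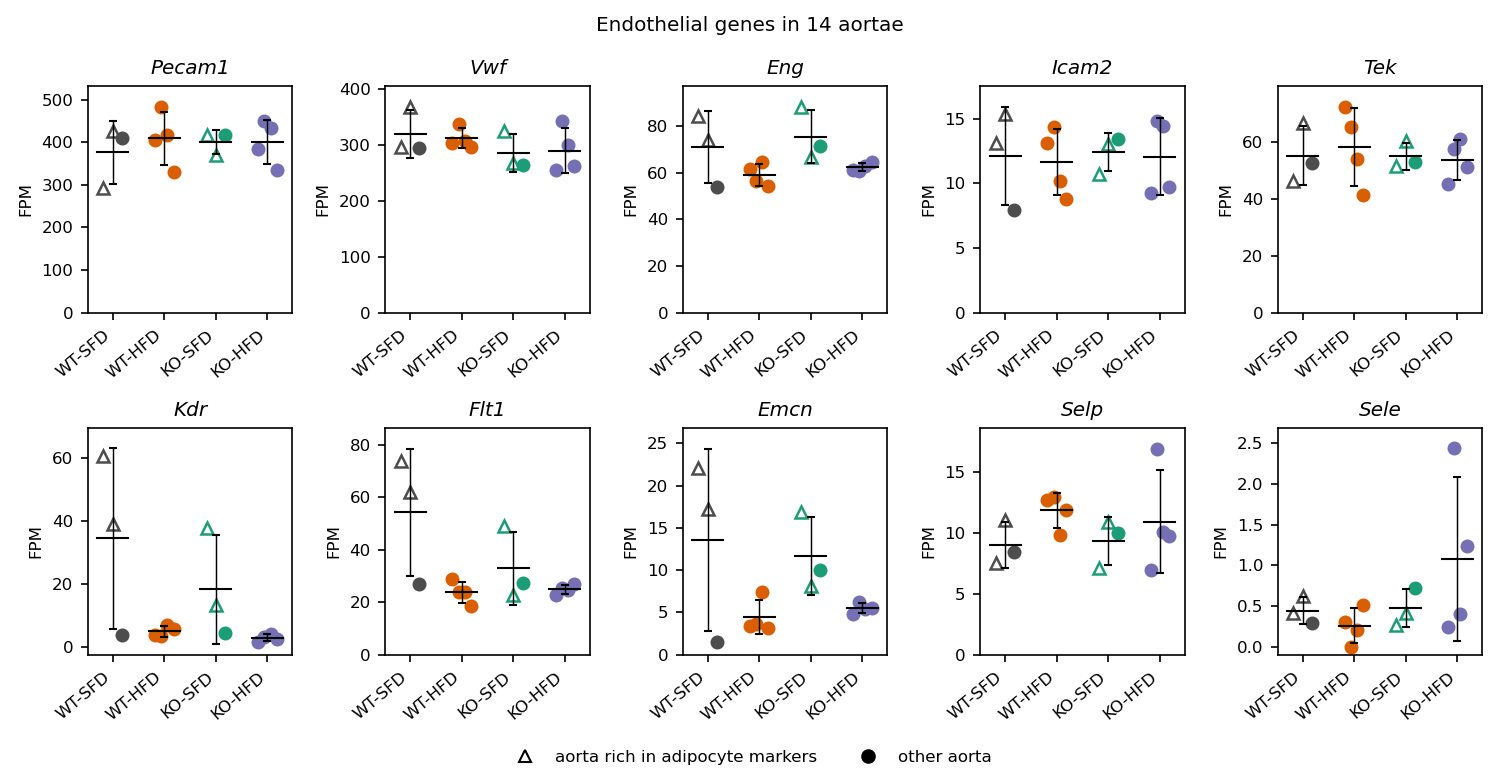
FPM of each of the 10 genes in the 14 aortae by group, one point per mouse, with horizontal lines at the group mean and bars of 1 SD. Triangles mark the 4 SFD aortae in which adipocyte markers summed to over 1000 FPM. For Kdr these 4 lie between 13.1 and 60.7 FPM, above the other 10 aortae, while Pecam1 and Vwf overlap throughout.

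The aortae that were high for Kdr were also those rich in adipocyte markers. The 16 adipocyte genes, of which Plin4 (318 to 645 FPM) had the highest median, summed to 7154, 5563 and 633 FPM in WT-SFD and to 4609, 1679 and 592 FPM in KO-SFD, in the same mouse order as above. They summed to 576 to 791 FPM in WT-HFD and to 531 to 698 FPM in KO-HFD, so that 4 SFD aortae (WT-SFD-1309, WT-SFD-1310, KO-SFD-1319 and KO-SFD-1452) stood apart from the other 10. No adipocyte gene was at 0 in all aortae, and Adipoq, the gene of the fat cell hormone adiponectin, ran from 1.37 to 195 FPM. In these 4 aortae Kdr was 13.1 to 60.7 FPM against 1.47 to 6.88 FPM in the other 10, and it was the only one of the 10 genes whose values did not overlap between the 4 and the 10. Smooth muscle markers summed to 9791 to 15720 FPM in the 4 and to 14600 to 17670 FPM in the 10. Markers of red blood cells, led by Hbb-bt, summed to 28.5, 13.7 and 22.2 FPM in WT-SFD-1309, WT-SFD-1310 and KO-SFD-1319, the 3 aortae that led for Kdr and Flt1, and to 170.5 to 833 FPM in the other 11, among them KO-SFD-1452 at 363 FPM. With HFD the 5 tested red blood cell markers were higher in WT (median 1.23) and in KO (median 1.16), as were all 7 tested platelet markers (medians 0.69 and 0.61), with 0 called. Without the 4 aortae rich in adipocyte markers, 1 aorta was left in each SFD group. In that fit 0 of 5 red blood cell markers and 4 of 8 tested platelet markers were higher in WT, and 5 of 5 and 7 of 8 in KO. Platelet markers, led by Itgb3, summed to 71.4 to 208 FPM in the 4 and to 147 to 278 FPM in the 10. The part of this difference in blood cell RNA in the results was not tested. The summed level of the other endothelial genes, 28 of which had counts, led by Ptprb, was 1404 to 1615 FPM in the 4 and 1225 to 1616 FPM in the 10.

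Genes of capillary endothelium followed the same libraries. The 10 capillary genes summed to 727, 542 and 46.6 FPM in WT-SFD, 51.5, 46.6, 74.4 and 67.8 in WT-HFD, 469, 152 and 41.5 in KO-SFD, and 38.9, 61.4, 56.7 and 35.3 in KO-HFD. The fatty acid transporter gene Cd36, which adipocytes express too, was the most abundant of them, at 17.5 to 533 FPM. By contrast the arterial genes, led by Fbln5, summed to 398 to 624 FPM in the 4 aortae rich in adipocyte markers and to 567 to 689 FPM in the other 10. Fbln5 alone stood at 119 to 284 FPM in the 4 and at 227 to 321 FPM in the 10. The mean log2 CPM of the tested arterial genes overlapped, at 4.74 to 5.03 in the 4 and 4.78 to 5.06 in the 10.

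**Figure D3:**
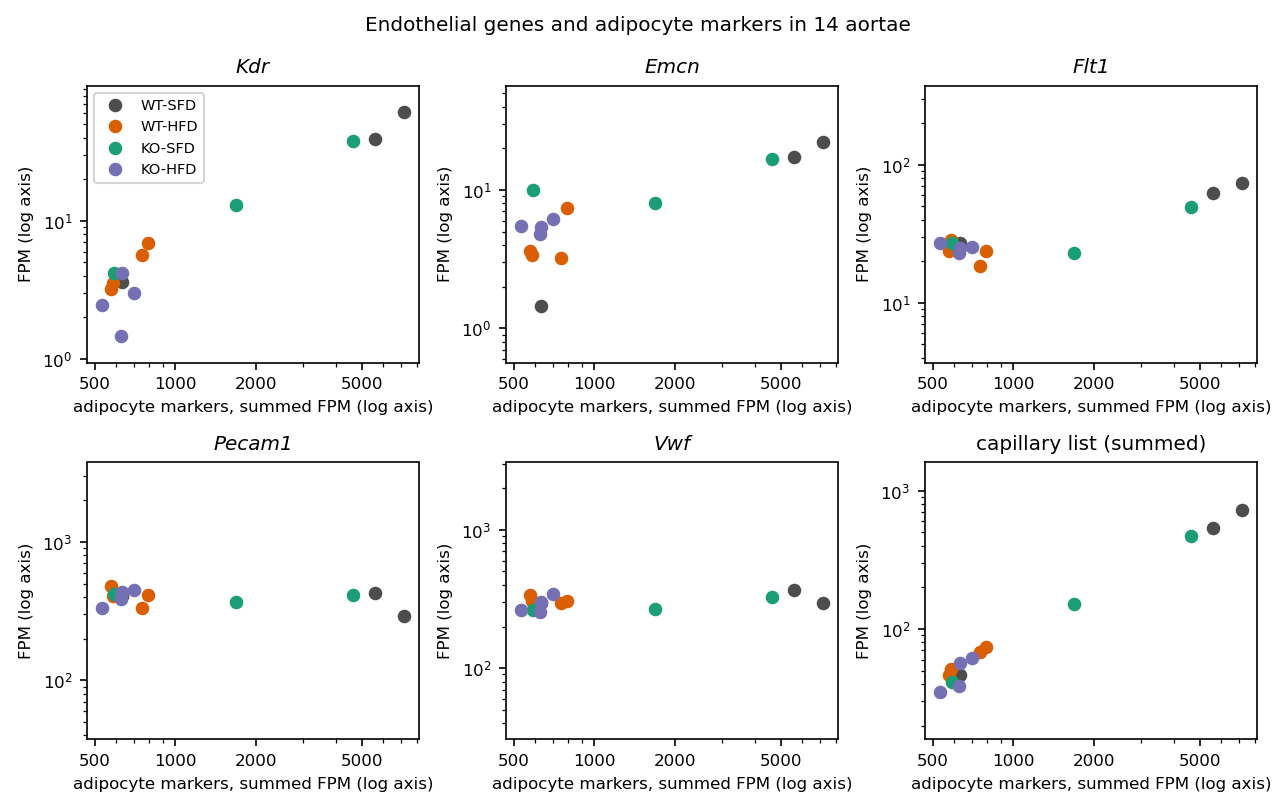
FPM of Kdr, Emcn, Flt1, Pecam1 and Vwf and the summed FPM of the 10 capillary genes against the summed FPM of the 16 adipocyte markers in 14 aortae (both axes log), coloured by group. Kdr and the capillary sum are highest in the 4 aortae with 1679 to 7154 FPM of adipocyte markers, while Pecam1 and Vwf lie level.

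With HFD in WT aortae, no member passed edgeR's test over all genes, and the 3 lowest fold changes were those of Kdr, Emcn and Flt1. The log2 fold change was −2.85 ± 0.73 (SE) for Kdr (95% interval −4.40 to −1.29, edgeR adjusted p = 0.0791), −1.20 ± 0.29 for Flt1 (−1.81 to −0.58, adjusted p = 0.0780) and −1.63 ± 0.55 for Emcn (−2.81 to −0.45, adjusted p = 0.144). In all 3 the groups overlapped, through the low values of WT-SFD-1445. By edgeR's quasi-likelihood test 0 of the 9 tested members were called at an adjusted p of 0.05, as were 0% of the 14796 tested genes. At an unadjusted p under 0.05, 3 members were lower and 0 higher, where 11.1% of all genes were lower and 5.55% higher. DESeq2 called 2 members, Kdr (adjusted p = 0.0258) and Flt1 (adjusted p = 0.00979), and 4.07% of all genes. Sele, with 75 counts over all aortae, did not pass the filter on low counts and was not tested.

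These estimates depended on single libraries. WT-SFD-1445, at 633 FPM of adipocyte markers, was the only WT-SFD aorta not rich in them. Without it, WT-SFD consisted of WT-SFD-1309 and WT-SFD-1310, at 7154 and 5563 FPM, against WT-HFD aortae at 576 to 791 FPM. Diet and adipocyte content cannot be told apart in that fit. Without WT-SFD-1445, edgeR called 4 members lower on HFD, Kdr (log2 fold change −3.37, adjusted p = 0.00116), Flt1 (−1.51, adjusted p = 0.000783), Emcn (−2.15, adjusted p = 0.000783) and Eng (−0.42, adjusted p = 0.0374), in a fit that called 11.7% of all genes. Without KO-SFD-1319 or KO-SFD-1507 it called 2, Kdr (adjusted p = 0.0369 and 0.0432) and Flt1 (adjusted p = 0.0350, and just under 0.05 without KO-SFD-1507), with estimates of −2.84 and −2.81 for Kdr, in fits that called 3.26% and 2.18% of all genes. Without the 4 aortae rich in adipocyte markers, the Kdr estimate was 0.42 (edgeR adjusted p = 0.934), that of Flt1 −0.18 and that of Emcn 1.61 (adjusted p = 0.779), in a fit where WT-SFD and KO-SFD kept 1 aorta each and that aorta was assumed to vary like the other groups. This last fit was chosen after the data were seen, and it called 0 members.

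Pecam1, Vwf, Tek and Icam2 had estimates near 0 in the same comparison. That of Eng was lower, and Eng was called without WT-SFD-1445, as given above. The intervals for HFD against SFD in WT were −0.21 to 0.46 for Pecam1, −0.31 to 0.24 for Vwf, −0.30 to 0.46 for Tek, −0.56 to 0.03 for Eng and −0.59 to 0.46 for Icam2. Selp, which stood at 7.51, 11.1 and 8.37 FPM in WT-SFD and at 12.7, 13.0, 9.80 and 11.9 FPM in WT-HFD, had an estimate of 0.39 (interval −0.17 to 0.95), and its groups overlapped. Platelets hold the products of Selp and Vwf too, and in this comparison 7 of 7 tested platelet markers were higher (median 0.69, all genes −0.01; 0 called), whose part in the Selp estimate was not tested.

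In KO aortae, HFD gave a like direction for Kdr and Emcn and an estimate nearer 0 for Flt1. Kdr differed by −2.66 ± 0.77 (SE; interval −4.30 to −1.02; edgeR adjusted p = 0.556), and its highest KO-HFD aorta (4.16 FPM) lay just under its lowest KO-SFD aorta (4.17 FPM). Leaving out single libraries gave −3.15 to −1.55 for this Kdr estimate. Emcn differed by −1.08 (interval −2.25 to 0.09), Flt1 by −0.40 (−1.02 to 0.22) and Eng by −0.28 (−0.57 to 0.02). The sign of the Flt1 estimate turned under an alternative. The edgeR test called 0 of 9 members and 0% of all genes, DESeq2 called 0 members, and 1 member (Kdr) was lower at an unadjusted p under 0.05, where 4.85% of all genes were lower. Kdr, Emcn and Eng were the 3 members whose KO-HFD values all lay below KO-SFD, where 3.59% of all genes were lower without overlap. Without the 4 aortae rich in adipocyte markers the Kdr estimate was −0.55, and of 10 members 4 were higher and 6 lower (median −0.09). For Emcn, the KO-SFD aorta kept in that fit, KO-SFD-1507, stood at 9.97 FPM against 4.77 to 6.20 FPM in KO-HFD. The difference between the diet effects in KO and WT, tested as an interaction, was 0.80 for Flt1 (interval −0.08 to 1.68), 0.19 for Kdr (−2.11 to 2.48) and 0.55 for Emcn (−1.12 to 2.22), the last at −2.47 without those 4 aortae. All 9 interaction estimates had an edgeR adjusted p of 1, 0 members had an unadjusted p under 0.05 (4.1% of all genes did), 0 were called by DESeq2, and edgeR called 0% of all genes.

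In the genotype comparisons of the aorta no tested member was called. On SFD, Flt1 differed by −0.72 ± 0.31 (SE) in KO against WT (interval −1.39 to −0.06; edgeR adjusted p = 0.781), with overlapping groups, and without the 4 aortae rich in adipocyte markers its estimate was 0.0118. Kdr differed by −0.93 (interval −2.51 to 0.64), and the other 7 tested members lay within −0.23 and 0.09. Without those 4 aortae, in a fit with 1 aorta left in each SFD group, the sign turned for Kdr (0.21) and for Emcn (from −0.23 to 2.78, edgeR adjusted p = 0.672), and with the mean of the other endothelial genes as a covariate Kdr differed by 0.39. Of the 9 members, 0 were called by edgeR or DESeq2 on SFD, where 0.0811% of all genes were called by edgeR, and 1 was lower at an unadjusted p under 0.05, where 3.2% of all genes were lower. On HFD, where adipocyte markers stayed below 1000 FPM in every aorta, Kdr differed by −0.75 (interval −2.39 to 0.89; 0.0382 with the mean of the other endothelial genes as a covariate), Emcn by 0.31 (−0.83 to 1.46) and the other members by −0.12 to 0.07. In this comparison 15 of 16 adipocyte markers (median −0.56) and 10 of 10 capillary genes (median −0.94) were lower. So were 25 of 28 other endothelial genes (median −0.17), with 0 called in these lists. Their part in the Kdr estimate was not tested. Here too 0 members were called by edgeR or DESeq2, 0 had an unadjusted p under 0.05 (5.04% of all genes did), and 0.0811% of all genes were called by edgeR. The intervals for Pecam1 (−0.34 to 0.28) and Vwf (−0.36 to 0.15) on HFD were the narrow ones for abundant genes, and those for Kdr and Emcn were wide.

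Sele was near the detection limit of the aortic libraries. It stood at 0.409, 0.615 and 0.289 FPM in WT-SFD, 0.306, 0, 0.209 and 0.512 in WT-HFD, 0.268, 0.418 and 0.725 in KO-SFD, and 0.245, 2.44, 0.400 and 1.23 in KO-HFD. Its highest values were those of KO-HFD-1503 and KO-HFD-1505, and all 4 groups overlapped. A count of 0, as in WT-HFD-1443, allowed a level of up to 0.302 FPM (3 counts), which covers counting error only. KO-HFD-1503 was also the aorta with the highest Selp, at 16.9 FPM against 6.97 to 13.0 FPM in the other 13.

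**Figure D4:**
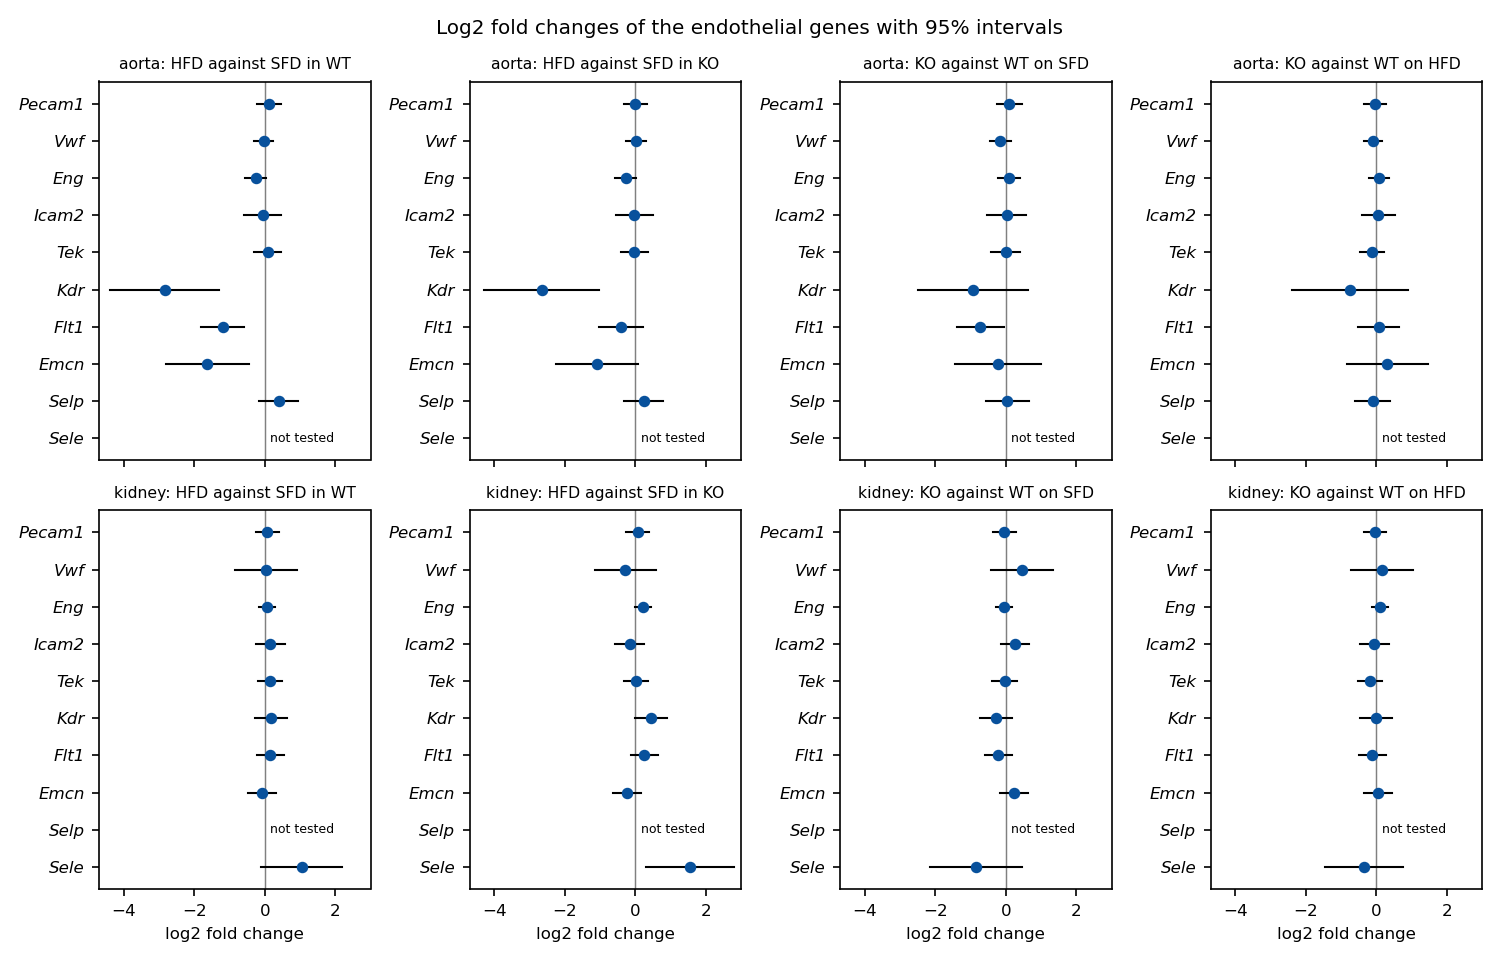
Log2 fold changes (horizontal axis) of the 10 genes with 95% intervals, for 4 comparisons in the aorta (upper row) and the kidney (lower row). Intervals lie below 0 for Kdr in both aortic diet comparisons, for Flt1 and Emcn in that of WT and for Flt1 in KO against WT on SFD, and above 0 for Sele and Kdr with HFD in KO kidneys. No edgeR adjusted p was under 0.05, while DESeq2 gave 0.0258 for Kdr and 0.00979 for Flt1 with HFD in WT aortae.

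In the kidney the ratio of the highest to the lowest library was 2.28 for Kdr, 1.96 for Flt1 and 1.94 for Emcn, against 41.4, 3.98 and 15.3 in the aorta. For Pecam1, Tek, Eng and Icam2 it was 1.69, 1.79, 1.57 and 2.43, near the aortic ratios of 1.66, 1.76, 1.64 and 1.94. Kdr stood at 61.0, 52.7, 56.4 and 79.0 FPM in WT-SFD, 72.7, 47.9, 95.5 and 64.8 in WT-HFD, 64.1, 43.1, 43.3 and 53.9 in KO-SFD, and 63.8, 57.8, 59.7 and 98.0 in KO-HFD. The highest kidneys were KO-HFD-1558 and WT-HFD-1641, and all groups overlapped. Eng ran from 93.5 to 147 FPM, Pecam1 from 50.3 to 85.0, Emcn from 35.1 to 68.0, Flt1 from 33.5 to 65.7, Tek from 25.2 to 45 and Icam2 from 5.37 to 13.0 FPM. The largest renal ratio among the 8 identity genes was that of Vwf, 3.99, with the lowest value in WT-SFD-1695 (4.48 FPM) and the highest in KO-SFD-1303 (17.9 FPM).

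The renal diet comparisons called no identity gene, and how closely they bounded each gene differed. In WT kidneys HFD gave estimates of −0.08 to 0.17 for the 8 identity genes, with intervals of −0.25 to 0.39 for Pecam1, −0.18 to 0.29 for Eng, −0.27 to 0.62 for Kdr and −0.85 to 0.91 for Vwf. In KO kidneys Kdr differed by 0.45 ± 0.21 (SE; interval 0.0036 to 0.90; edgeR adjusted p = 0.312), with overlapping groups, and by 0.24 without KO-HFD-1558, its highest kidney. Eng differed by 0.22 (interval −0.02 to 0.45) and Vwf by −0.29 (−1.16 to 0.59). All 6 podocyte markers were higher in the same comparison (median 0.47), and their part in the Kdr and Eng estimates was not tested. Podocytes belong to the glomerulus, but these markers are not confined to it. In the aortae they summed to 361 to 486 FPM, led by Synpo. Of the 9 tested members 0 were called in WT and 0 in KO by edgeR or DESeq2, where edgeR called 0.911% of 15034 genes in WT and 2.3% in KO. At an unadjusted p under 0.05, 0 members differed in WT, where 7.9% of all genes did, and 2 members were higher in KO, where 8.71% of all genes were higher.

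Sele was the renal member with the largest diet estimates. It stood at 1.14, 1.01, 0.308 and 0.179 FPM in WT-SFD, 1.76, 0.765, 1.65 and 1.05 in WT-HFD, 0.627, 0.0539, 0.409 and 0.273 in KO-SFD, and 1.09, 0.865, 0.570 and 1.56 in KO-HFD, from 1 to 38 counts per kidney. Every HFD kidney was above the SFD median of its genotype, but the groups overlapped in WT and in KO. The log2 fold change with HFD was 1.04 ± 0.55 in WT (interval −0.11 to 2.2; edgeR adjusted p = 0.71) and 1.55 ± 0.59 in KO (interval 0.30 to 2.81; adjusted p = 0.209). The difference between the diet effects was 0.51 (interval −1.19 to 2.21). Selp, its neighbour on the chromosome, had 0 to 11 counts per kidney and 66 in all and was not tested. Gm16587 and Gm16548, which overlap Selp on the opposite strand, held 2 and 30 counts over all kidneys. Selp stood at 0.217, 0.251, 0.0343 and 0.314 FPM in WT-SFD, 0.509, 0.204, 0.284 and 0.287 in WT-HFD, 0.145, 0, 0 and 0.0546 in KO-SFD, and 0.326, 0.389, 0.127 and 0.151 in KO-HFD. The highest KO-SFD kidney, at 0.145 FPM, was above the lowest of WT-SFD and of KO-HFD, so these groups overlapped.

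Between genotypes the groups overlapped for every renal member on either diet. On SFD the estimates for KO against WT ran from −0.85 (Sele; interval −2.16 to 0.45) to 0.46 (Vwf; −0.41 to 1.34), and Kdr differed by −0.29 (−0.73 to 0.16). The podocyte markers were lower in KO on SFD too, 6 of 6 with a median of −0.47, and 5 of them had an unadjusted p under 0.05 with 0 called by edgeR. On HFD they ran from −0.35 (Sele; −1.46 to 0.76) to 0.15 (Vwf; −0.73 to 1.03), and Kdr differed by −0.01 (−0.45 to 0.44). On either diet 0 of 9 members were called by edgeR or DESeq2 and 0 had an unadjusted p under 0.05, where edgeR called 0.0133% of all genes on SFD and 0.00665% on HFD, and 8.37% and 1.65% had an unadjusted p under 0.05. The interaction called 0 members by either tool, and 0 members and 3.23% of all genes had an unadjusted p under 0.05, where edgeR called 0% of all genes.

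**Figure D5:**
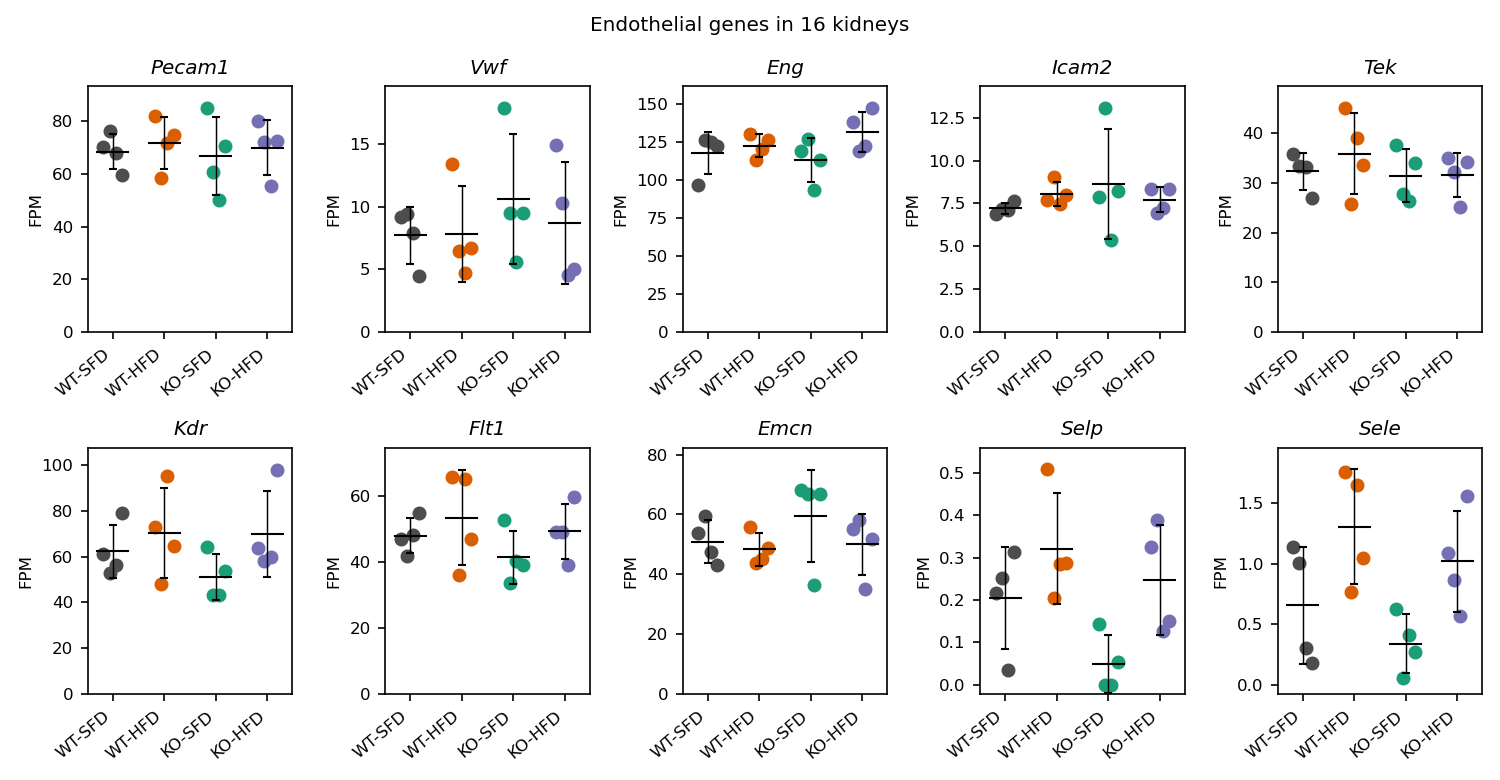
FPM of each of the 10 genes in the 16 kidneys by group, one point per mouse, with horizontal lines at the group mean and bars of 1 SD. The groups overlap for Kdr, Pecam1, Eng and the other identity genes, and Sele and Selp lie below 2 FPM in every kidney.

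Other endothelial genes were read for the same comparisons, and their values between genotypes on HFD in the aorta are given above. In KO against WT aortae on SFD, 9 of 28 other endothelial genes were higher and 19 lower (median −0.19). All 10 capillary genes (median −1.03) and all 16 adipocyte markers (median −1.10) were lower there, with 0 called. Of 28 tested genes of the other endothelial list, 8 were higher and 20 lower with HFD in WT aortae (median log2 difference −0.12, all genes −0.01), and 9 and 19 in KO aortae (median −0.13, all genes 0.00), with 0 called in either. The capillary list was lower throughout, 0 of 10 higher and 10 lower in both genotypes, with a median of −2.87 in WT and −2.38 in KO. In WT aortae 8 of these 10, and in KO aortae 7, had an unadjusted p under 0.05, where 11.1% and 4.85% of all genes were lower at that limit, and 0 were called. Cd36 (−3.42 ± 0.84 SE, edgeR adjusted p = 0.0780), Btnl9 (−2.68 ± 0.67, adjusted p = 0.0780) and Car4 (−3.37 ± 0.97, adjusted p = 0.0910), the gene of a membrane-bound carbonic anhydrase, had the smallest p in WT. The arterial list had 6 of 9 genes higher and 3 lower in WT (median 0.21) and 4 and 5 in KO (median −0.02). Efnb2, an ephrin that marks arterial endothelium, differed by 0.50 ± 0.16 in WT (adjusted p = 0.129). Of 9 venous and lymphatic genes, 8 were lower with HFD in each genotype, among them Prox1, the lymphatic transcription factor (−1.69 ± 0.55, adjusted p = 0.134). The adipocyte list had 16 of 16 genes lower in WT (median −3.65) and in KO (median −3.16), with 0 called. Without the 4 aortae rich in adipocyte markers, 1 aorta was left in each SFD group, so the directions of that fit rest on single SFD aortae. The capillary, other endothelial and venous lists turned there in WT. Of 8 tested capillary genes 7 were higher and 1 lower (median 0.61). Of 28 other endothelial genes 19 were higher and 9 lower (median 0.15), and 6 of 8 venous and lymphatic genes were higher. In KO the same fit gave 7 of 8 capillary genes and 20 of 28 other endothelial genes higher. With the mean of the adipocyte markers as a covariate, Kdr differed by −0.25 (adjusted p = 0.871), Emcn by −0.20 and Flt1 by −0.57 with HFD in WT.

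Ligands and partners of the members were read in the same way. Of 17 tested genes, 8 were higher and 9 lower with HFD in WT aortae, and 2 were higher and 15 lower in KO aortae. Of 7 tested leucocyte markers, 5 were higher and 2 lower in WT, and 1 was higher and 6 lower in KO (median −0.34). Their part in the ligand counts was not tested. Vegfa, the ligand of Kdr and Flt1, stood at 92.9 ± 56.7 FPM (SD, n = 3) in WT-SFD and 35.3 ± 4.12 (n = 4) in WT-HFD, and at 55.9 ± 34.7 (n = 3) in KO-SFD and 25.1 ± 2.70 (n = 4) in KO-HFD. Its WT difference was −1.40 ± 0.40 on the log2 scale (SE, adjusted p = 0.0879), and that of Nrp2, a VEGF co-receptor of veins and lymphatics, was −1.58 ± 0.46 (adjusted p = 0.0947). Without the 4 aortae rich in adipocyte markers, with 1 aorta left per SFD group, 9 of the 17 were higher in WT and 8 in KO. Angpt2, the antagonist ligand of Tek, differed by 0.63 ± 0.21 (adjusted p = 0.142). In KO against WT aortae on SFD, 10 of the 17 were higher and 7 lower (median 0.10, all genes −0.03), with 0 called. The 3 with the smallest p were Cd44, Itgb2 and Itgam, genes of selectin and integrin partners on leucocytes, at 0.55, 1.25 and 1.3, and the lowest adjusted p of the 3 was 0.776. In the same comparison 7 of 7 tested leucocyte markers, among them Itgam itself, were higher (median 0.65, 0 called). These markers, led by Lyz2, summed to 98.9 to 108 FPM in WT-SFD and to 152 to 220.5 FPM in KO-SFD, and their part in the 3 estimates was not tested.

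Of the genes of endothelial activation other than the selectins, 20 were tested in the aorta. With HFD 14 were higher and 6 lower in WT (median 0.12), 15 and 5 in KO (median 0.10), with 0 called. Without the 4 aortae rich in adipocyte markers, with 1 aorta left per SFD group, 10 were higher and 10 lower in WT, and 12 and 8 in KO. Cxcl1, a neutrophil chemokine, differed by 1.81 ± 0.66 in WT (adjusted p = 0.177), from 0.137 to 0.578 FPM in WT-SFD to 0.603 to 2.17 FPM in WT-HFD, which were 1 to 5 and 6 to 20 counts per aorta, near the floor of 3 counts. In KO against WT on HFD, 10 of the 20 were higher and 10 lower (median 0.03), with 0 called. Among them Ccl2, a monocyte chemokine, stood at 1.73 ± 0.259 against 0.855 ± 0.415 FPM (SD, n = 4). Its log2 difference was 0.99 (edgeR adjusted p = 0.964), without overlap. In this comparison 2 of the 20 were higher without overlap, as were 2.15% of all genes.

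Aqp7, which stands in the capillary list, encodes an aquaglyceroporin that the proximal tubule also expresses. In the kidney it fell with HFD in KO mice, from 43.9 ± 5.57 to 28.7 ± 4.27 FPM (SD, n = 4; log2 fold change −0.61 ± 0.12 SE, edgeR adjusted p = 0.0109). It differed by −0.37 in WT (adjusted p = 0.265), and the interaction was −0.24 (interval −0.59 to 0.12). Lpl, the gene of lipoprotein lipase, also fell in KO, from 760 ± 155 to 361 ± 97.2 FPM (−1.07 ± 0.27, adjusted p = 0.0433), with the same estimate in WT (−1.07, adjusted p = 0.0863). These were the only genes of the capillary and glomerular lists called in the kidney, 1 of 9 and 1 of 7 tested genes, where 2.3% of all genes were called. With HFD 2 of the 9 capillary genes were higher and 7 lower in KO, and 6 and 3 in WT. Of the 7 glomerular genes, 3 were higher and 4 lower in KO, and 1 and 6 in WT. Lpl is a fat cell gene too and stands in both the glomerular and the adipocyte list. In the same KO kidneys 14 of 16 adipocyte markers were lower and 2 higher with HFD (median −0.79, all genes 0.00), with Lpl called lower and Lep higher. The adipocyte markers, of which Lpl had the highest mean over the kidneys, summed to 1284 to 2309 FPM in KO-SFD and to 766 to 1193 FPM in KO-HFD, and their part in the Lpl and Aqp7 results was not tested. Of the 6 proximal tubule markers, 5 were higher and 1 lower with HFD in KO (median 0.19), and 1 was higher and 5 lower in WT (median −0.10). The one called was Slc5a2, the gene of a sodium-glucose cotransporter, which rose from 342 ± 23.8 to 992 ± 358 FPM in KO (SD, n = 4; log2 fold change 1.54 ± 0.21 SE, edgeR adjusted p = 0.000625) and from 374 ± 78.3 to 863 ± 98.1 FPM in WT (adjusted p = 0.00568). Vcam1 encodes another leucocyte adhesion molecule of activated endothelium. It stood at 7.42 FPM ± 1.3 in WT-SFD and 11.4 ± 1.82 in WT-HFD (0.61 ± 0.17 SE, edgeR adjusted p = 0.125). These groups did not overlap, where 3.02% of all genes were higher without overlap. In KO mice Vcam1 stood at 7.23 ± 0.763 in KO-SFD and 10.5 ± 2.02 in KO-HFD (0.54 ± 0.17, edgeR adjusted p = 0.112). Of 22 tested activation genes in the kidney, 15 were higher and 7 lower with HFD in WT (median 0.08), 12 and 10 in KO (median 0.07), with 0 called. Of 9 tested leucocyte markers in the same kidneys, 8 were higher with HFD in WT (median 0.41) and 6 in KO (median 0.27), with 0 called, and their part in the activation and Vcam1 estimates was not tested. Among ligands, 13 of 17 tested genes were higher with HFD in KO kidneys (median 0.31, all genes 0.00), led by the Tek ligand gene Angpt1 (0.58 ± 0.16, adjusted p = 0.0656) and the lymphatic growth factor gene Vegfc (0.57 ± 0.16, adjusted p = 0.0801), with 0 called. In WT kidneys 11 were higher and 6 lower (median 0.12), and the interaction had a median of 0.08. Podocyte markers, led by Podxl, moved with the ligands in KO, with 6 of 6 higher (median 0.47), of which 5 had an unadjusted p under 0.05 and 0 were called by edgeR, against 3 higher and 3 lower in WT. The interaction was positive for 6 of 6 (median 0.41, 0 called), and these markers had been lower in KO than in WT on SFD, as given above. They summed to 178 to 223 FPM in KO-SFD and to 211 to 318 FPM in KO-HFD, and their part in the ligand estimates was not tested.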

How the data were processed

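RNA had been depleted of ribosomal RNA per the labels and read as pairs; the authors trimmed reads with cutadapt, aligned them to mm10 with TopHat and counted them per gene with featureCounts, tools named in the submitters' processing notes. The deposited values are raw counts per gene for the aorta and for the kidney. The authors named genes with BiomaRt. The strand setting and the handling of multimapping reads are not given in the sources used here. Of the genes, 40254 were found in GENCODE vM21, whose exon lengths gave levels per kb, and promoters came from RefSeq (GRCm38.p6).

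Counts were filtered by filterByExpr (14796 aortic and 15034 renal genes were tested), scaled by TMM and fitted with 4 groups per tissue by edgeR 4.0.16 (glmQLFit, glmQLFTest; R 4.3.3), with p-values adjusted over all tested genes by Benjamini-Hochberg and a limit of 0.05. Standard errors are the fold change over the square root of F, and 95% intervals follow from them. The fits were tested on simulated data. DESeq2 1.42.0, other scalings, no filter, covariates, the study's limit of 0.001 and leaving out each library were alternatives.

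The 10 members and the lists of other genes were chosen with earlier results of these data known. All members were named, and of each other list in a comparison the called genes, or otherwise up to 3 with the smallest p. List genes that both tables list at 0 in every library, such as Icam1, Cdh5 and Nrp1, entered no test. Mouse numbers come from the labels and name single animals, so that p-values cover the spread between mice. One gene that the likeness rule named in the kidney is not reported here.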

Additional observations from a re-analysis of the deposited data

Results flagged for a closer look

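Of 60 groups of 4 libraries examined, 4 held a library whose gap to its neighbour exceeded Dixon's critical share of the group's range, and chance alone gives about 1 in 20 such groups. In the aorta this was Emcn in WT-HFD-1447, at 7.40 FPM against 3.2 to 3.62 FPM in the other 3. In the kidney it was Kdr in KO-HFD-1558, at 98.0 FPM against 57.8 to 63.8 FPM. Eng in the kidney of WT-SFD-1309 stood at 96.7 FPM against 122 to 126 FPM in the rest of its group. Emcn in the kidney of KO-SFD-1319 stood at 36.2 FPM against 66.7 to 68.0 FPM. No cause was tested.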

How the results depend on the processing

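The count of 0 members called held in every alternative for 9 of 10 comparisons. The exception was HFD against SFD in WT aortae, with 1 member called on library totals without TMM (Kdr; 1.48% of all genes called), 2 with no low count filter and 2 by DESeq2 (Kdr and Flt1 in both; 1.96% and 4.07% of all genes), and 0 to 4 when single libraries were left out (4 without WT-SFD-1445, and 2 each without KO-SFD-1319 or KO-SFD-1507). Without the aortae rich in adipocyte markers, a fit added after the data were seen, the sign turned for Kdr (0.42) and Emcn (1.61) with HFD in WT and for Flt1 in KO against WT on SFD (0.0118). Leaving out 1 library gave −3.37 to −2.17 for Kdr, −1.51 to −0.92 for Flt1 and −2.15 to −1.12 for Emcn with HFD in WT, −3.15 to −1.55 for Kdr with HFD in KO, and −1.11 to −0.45 for Flt1 in KO against WT on SFD. In KO kidneys on HFD the ranges were 0.24 to 0.58 for Kdr and 1.21 to 2.03 for Sele. With the mean of the other endothelial genes as a covariate, Kdr differed by −1.22 with HFD in WT aortae. Library totals without TMM moved the median of all aortic genes by up to 0.29, in KO against WT on SFD. Of the estimates with an unadjusted p of 0.05 or more, over all 10 comparisons, 162 of 1807 values changed sign. Among them were Kdr in KO against WT on SFD (0.21 without the aortae rich in adipocyte markers, 0.39 with the mean of the other endothelial genes as a covariate) and on HFD (0.0382 with that covariate), and Emcn in KO against WT on SFD (2.78) and in the aortic interaction (−2.47), both without those aortae. Flt1 with HFD in KO aortae changed sign too. No paired analysis was possible because the mouse numbers name single animals and no 2 groups of a tissue share 2 of them. The aortic groups of 3 mice and the spread within them limit what can be shown for Kdr and Emcn, and the low counts of Sele and Selp limit theirs. Both Kdr and Emcn were called lower with HFD in WT once WT-SFD-1445 was left out. That fit called 11.7% of all genes, and its WT-SFD aortae were all rich in adipocyte markers. Diet and adipocyte content cannot be told apart there.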

Other observations

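For 3 mice both tissues were sequenced. Kdr stood at 60.7 FPM in the aorta and 61.0 in the kidney of WT-SFD-1309, at 37.6 and 43.3 in KO-SFD-1319, and at 4.16 and 57.8 in KO-HFD-1504. Vwf stood at 296 and 9.16 FPM, 326 and 5.57 FPM, and 301 and 10.3 FPM in the same mice. The aortic Kdr level thus spread more over these mice than the renal level did.

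Tested genes with the pattern most like that of the 8 identity genes' mean were, over 14 aortae, Mmachc (Pearson r = 0.936), Cpd (0.892), Jam2 (0.882), Asns (0.874) and Hs3st1 (0.870), and, over 16 kidneys, included Fam49a (0.890), Ppap2a (0.882), Zeb1 (0.845) and Man1c1 (0.841). For Selp in the aorta they were Fas (0.836), Ifitm2 (0.821), Gja5 (0.815), E130006D01Rik (0.815) and Pdrg1 (0.813). For Sele in the kidney they were Gnptab (0.904), Steap2 (0.883), Gm8923 (0.873), Cttnbp2 (0.852) and Asap1 (0.851). These values describe the libraries, which share depth and scaling within a tissue. They are the largest r out of 14796 aortic or 15034 renal genes tested, over few libraries. How large an r such a search returns for unrelated genes was not tested.

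Outside the endothelial lists, Itga2b, a platelet integrin gene, fell with HFD in KO kidneys, from 24.4 ± 4.85 to 15.4 ± 2.52 FPM (SD, n = 4; log2 fold change −0.67 ± 0.14 SE, edgeR adjusted p = 0.0193), where 2.3% of all genes were called. In WT kidneys it stood at 18.4 ± 0.711 and 14 ± 1.91 FPM (log2 fold change −0.39, edgeR adjusted p = 0.413), without overlap. There 1.99% of all genes were lower without overlap. The interaction for Itga2b was −0.27, and its mean on SFD was 24.4 FPM in KO against 18.4 FPM in WT. Of 4 tested platelet markers 1 was higher and 3 were lower in KO, and likewise in WT. On SFD 3 of these 4 were higher in KO than in WT, with 0 called. The list holds 8 markers, and their sum had a renal median of 21.5 FPM, where that of Itga2b alone was 17.9 FPM. The fat cell hormone gene Lep rose with HFD in KO kidneys (edgeR adjusted p = 0.00902), from 0.153 to 0.219 FPM in KO-SFD to 1.74 to 17.2 FPM in KO-HFD. The KO-SFD values were near the floor of 3 counts, which was 0.145 to 0.164 FPM in those kidneys. Of the 16 adipocyte markers 14 were lower in the same comparison (median −0.79). In WT kidneys 5 of the 16 were higher and 11 lower with HFD, and 0 were called, Lep included.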
